A study of Danio rerio with 24 samples.

Results

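Small heat shock proteins were followed by the transcripts of 8 listed genes, hspb1, hspb6, hspb7, hspb8, hspb9, hspb11, hspb12 and hspb15, which were looked up by gene symbol in tables of 32520 genes. A row was matched for 7 of the 8, and no row carried the symbol hspb12. RNA had been sequenced from wild-type zebrafish (Danio rerio), labelled whole embryo, that were collected at 120 hours post fertilisation (hpf), when the fish are free-swimming larvae. Since 0.75 hpf they had been exposed to perfluorohexane sulfonate (PFHxS), a persistent fluorinated surfactant. The title of the series puts the question whether a changed photoperiod alters the developmental toxicity of this compound.

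The 6 groups held 4 libraries each, 24 in all, and every group, controls included, received 0.1% dimethyl sulfoxide (DMSO) as vehicle. In constant darkness (24 h) these were the vehicle alone, 0.0025 µM PFHxS and 25 µM PFHxS, and the same 3 treatments were given with 14 h of light and 10 h of darkness per day, called the cycle here. The photoperiod was read from the sample titles, since the treatment field describes darkness for the cycle samples as well. How many larvae went into a library, and whether libraries came from separate clutches, is not given in the sources used here, so p-values measure the spread between libraries. Fragments assigned to genes numbered 8.44 to 14.5 M per library in darkness and 10.1 to 18.5 M under the cycle. The authors deposited FPKM, that is fragment counts divided by the length of the gene and a library size. This library size differs from the plain total of assigned fragments. The dark and the cycle libraries came as separate tables, each scaled on its own. Levels are therefore set side by side across photoperiods but not tested, whereas the effect of a dose can be compared between them. Photoperiod coincides with the table and with the series of library names. A difference in dose effect between photoperiods therefore cannot be told apart from one between these series.

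Small heat shock proteins are chaperones built around an alpha-crystallin domain that assemble into large oligomers and hold unfolding proteins in a soluble state until the ATP-driven Hsp70 machinery can refold them or hand them to degradation. Heat shock factor 1 switches on several of their genes when proteins unfold, and other members are expressed without stress in skeletal muscle, heart and lens, where they guard the contractile apparatus and the crystallins. In muscle, HSPB8 works with the co-chaperone BAG3 to route damaged filamin to autophagy.

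The identities of the 7 genes need some care. The annotation deposited with the tables gave the Hsp20/alpha-crystallin domain to 13 genes, 6 of them among the 7, with hspb6 the exception. The row named hspb11 (ENSDARG00000002204, chromosome 21, 20383837 to 20384878, plus strand) carries the name hspb9l in the reference list of gene names, and it is called hspb11 here as in the tables. The gene that this list calls hspb11 stands in the tables as zgc_158640 (ENSDARG00000067777), and in darkness its log2 difference between 25 µM and control was -0.04 ± 0.29 (SE, adjusted p = 0.943, limma). The genome build behind these coordinates is not given in the sources used here. Chromosome 5 carries hspb1 (3568016 to 3584815, minus strand), hspb8 (15819651 to 15840485, plus) and hspb15 (32321313 to 32323136, minus). The others lie on chromosome 15 (hspb6, 37559570 to 37562582, plus), chromosome 23 (hspb7, 24258323 to 24263474, minus) and chromosome 3 (hspb9, 33300522 to 33301321, plus). Whether counting used strand is not stated. The hspb9 gene lies wholly inside the antisense gene CABZ01012957.1 on the minus strand, so its fragments could have been shared or dropped. The hspb6 gene overlaps proser3 on the opposite strand.

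At 25 µM PFHxS in darkness the 6 genes with a measurable control level rose, from 1.72-fold for hspb15 to 11.8-fold for hspb6, and hspb9 went from 7 to 184 fragments. Under the light-dark cycle the same dose raised hspb6 and hspb11, and the other 5 did not pass the test although their estimates were above zero. Of all genes tested, 12.2% rose at this dose in darkness and 1.1% under the cycle. At 0.0025 µM no member passed the test under either photoperiod, while 0.021% of all genes did in darkness and 0% under the cycle. Tests were limma moderated tests on log2(FPKM + 0.1) with Benjamini-Hochberg adjustment over all genes tested and a threshold of 0.05, and fold changes are on that scale. The plot of FPKM by library shows the 24 values of each gene.

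**Figure D1:**
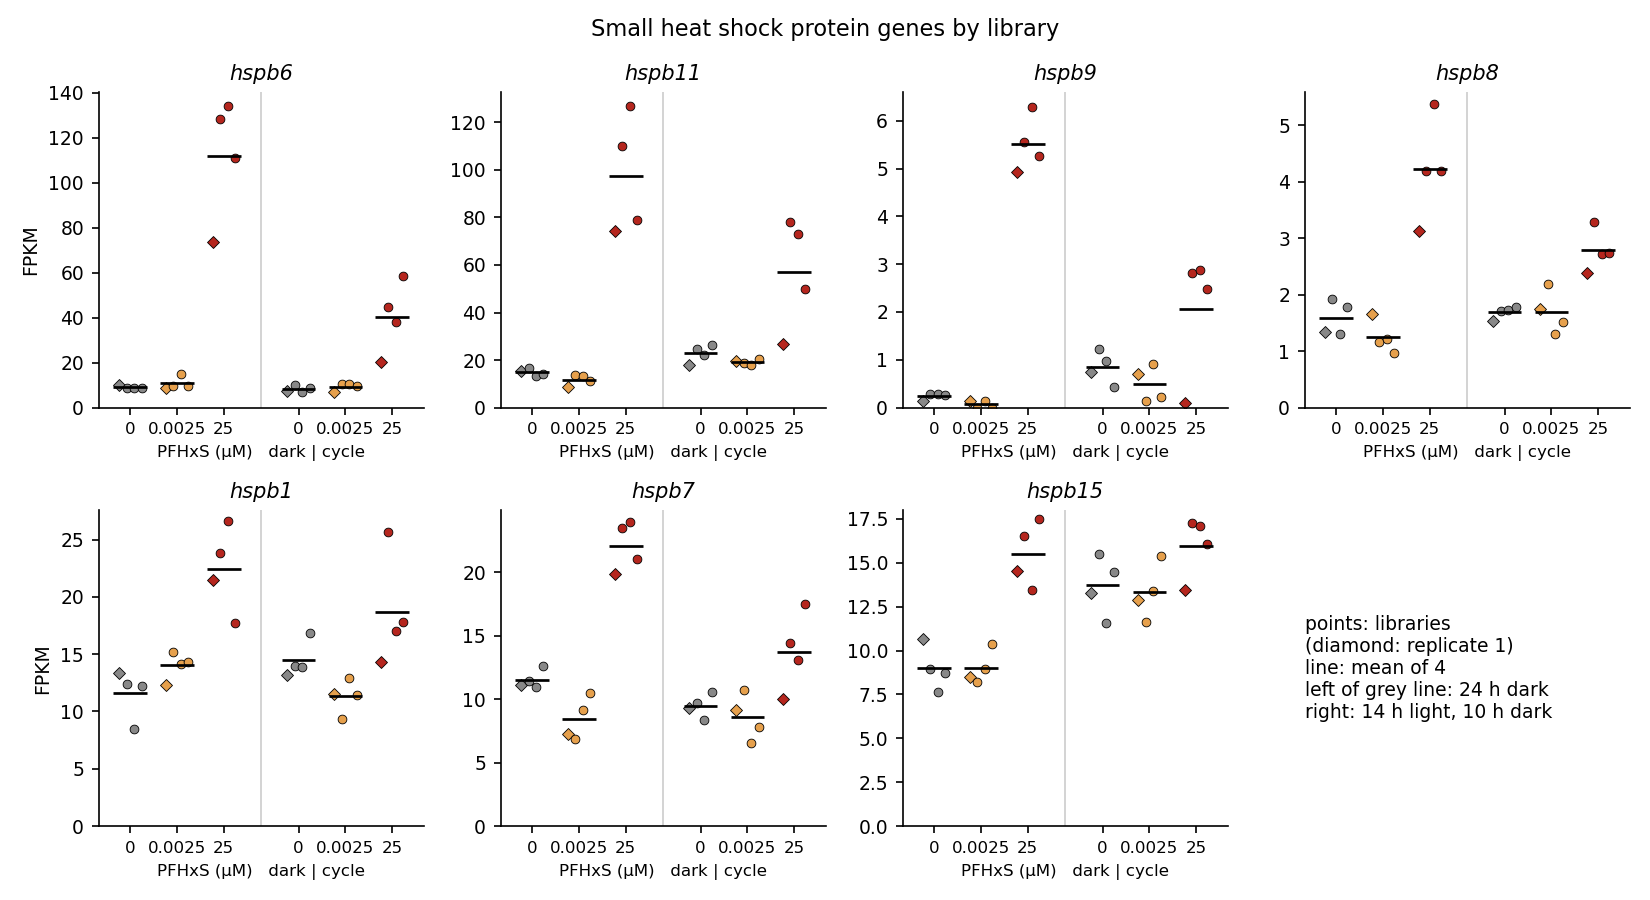
FPKM (y axis, linear, from 0) of the 7 small heat shock protein genes in each of the 24 libraries by PFHxS dose in µM, with constant darkness left and the light-dark cycle right of the grey line; bars are means of 4 libraries and diamonds mark replicate 1. In darkness the 4 libraries at 25 µM lie above all controls in every panel, as they did for 13.5% of all genes tested. Of the panels, hspb9 met the filter only through those libraries and so had to differ. Under the cycle replicate 1 at 25 µM is the lowest of its group in every panel.

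The muscle member hspb6, known in mammals as Hsp20 of heart and smooth muscle, had the largest change of these 6 genes. In dark controls its FPKM was 10.1, 8.75, 8.89 and 8.93, and at 25 µM it was 73.8, 128, 134 and 111. The groups were far apart, the lowest exposed library standing above 7 times the highest control. The log2 fold change was 3.56 ± 0.19 (SE, adjusted p = 1.98e-07, n = 4 against 4, limma), the 19th largest of 19058 genes tested. Under the cycle the controls read 7.55, 10.1, 7.11 and 8.74 FPKM, and the exposed libraries 20.4, 44.6, 37.9 and 58.6. These groups did not overlap either, and hspb6 rose by 2.17 ± 0.26 (adjusted p = 0.00219, limma), 4.50-fold. The overlapping gene proser3, which was looked at after the values were seen, had log2 differences of 0.37 ± 0.19 in darkness and -0.09 ± 0.17 under the cycle and passed the test in neither (adjusted p = 0.198 and 0.852, limma).

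The gene hspb7, whose protein is found in heart and skeletal muscle and which zebrafish need for normal heart formation, moved less. Its dark controls read 11.1, 11.4, 10.99 and 12.6 FPKM and the 25 µM libraries 19.9, 23.5, 24.0 and 21.0, a rise of 0.93 ± 0.13 on the log2 scale (adjusted p = 0.000286, limma). The replicates of both groups were tight and well separated. Under the cycle the means were 9.49 ± 0.93 and 13.7 ± 3.1 FPKM (SD, n = 4), with replicate 1 at 25 µM inside the control range and a log2 difference of 0.51 ± 0.18 that did not pass (adjusted p = 0.173, limma).

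The gene hspb8, which encodes the partner of BAG3, was the least abundant member after hspb9 in the controls of both photoperiods. At 25 µM in darkness it was the lowest, at a mean of 4.22 FPKM against 5.51 for hspb9. Dark controls read 1.33, 1.92, 1.303 and 1.79 FPKM and the exposed libraries 3.12, 4.19, 5.37 and 4.196, so that no exposed library reached down to the controls. The log2 change was 1.35 ± 0.21 (adjusted p = 0.000722, limma), 2.55-fold. Under the cycle the controls lay between 1.53 and 1.78 FPKM and the exposed libraries between 2.39 and 3.29. The groups were again apart, but the log2 difference of 0.68 ± 0.17 did not pass over all genes (adjusted p = 0.0737, limma). It did not pass in 13 of 15 alternatives, where the adjusted p reached 0.184. The 2 that passed were limma-voom on recovered fragments (adjusted p = 0.0423) and the fit without replicate 1 at 25 µM (adjusted p = 0.0492, limma). That library was the lowest exposed one, so leaving it out had to raise the estimate.

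The gene hspb11, whose expression in zebrafish embryos is known to depend on muscle activity, read 15.2, 16.8, 13.4 and 14.1 FPKM in dark controls and 74.2, 110, 127 and 78.8 at 25 µM. The lowest exposed library was more than 4 times the highest control. It rose by 2.67 ± 0.18 (adjusted p = 1.35e-06, limma), 6.38-fold. Under the cycle its controls were already higher, at 17.9, 24.8, 22.1 and 26.1 FPKM, and the exposed libraries read 26.8, 78.2, 73.1 and 49.8. Replicate 1 at 25 µM came within 1 FPKM of the highest control, and the rise of 1.22 ± 0.27 sat close to the threshold (adjusted p = 0.0435, limma). It did not pass in 10 of 15 alternatives, among them each removal of a single library other than that one. Over the 15 the adjusted p ranged from 0.000688 to 0.132 and the log2 value from 1.03 to 1.54.

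The gene hspb1, the fish counterpart of human Hsp27, which binds actin filaments and is induced by heat in many cell types, read 13.4, 12.4, 8.51 and 12.2 FPKM in dark controls and 21.5, 23.8, 26.6 and 17.7 at 25 µM. It rose by 0.95 ± 0.15 (adjusted p = 0.000752, limma), 1.93-fold. Under the cycle the 2 groups overlapped, at 13.2 to 16.8 and 14.3 to 25.7 FPKM, and the log2 difference was 0.34 ± 0.16 (adjusted p = 0.326, limma). The gene hspb15 had the smallest change of the 7 members, from 8.99 ± 1.25 to 15.5 ± 1.8 FPKM in darkness (SD, n = 4), a rise of 0.78 ± 0.12 (adjusted p = 0.000676, limma). Its cycle controls stood at 13.7 ± 1.7 FPKM and its exposed cycle libraries at 16.0 ± 1.8, which overlapped, with a log2 difference of 0.22 ± 0.12 (adjusted p = 0.396, limma).

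The gene hspb9, whose human counterpart is a testis protein, was close to undetected in darkness without PFHxS. Its controls read 0.14, 0.29, 0.27 and 0.27 FPKM, in all 7 fragments over 4 libraries, and the 25 µM libraries read 4.94, 5.56, 6.29 and 5.27 FPKM, in all 184 fragments. Scaled by the library sizes behind the FPKM, the pooled ratio was 22.8 (exact 95% interval 10.8 to 57.4, which covers counting error only). The fitted log2 change was 4.05 ± 0.36 (adjusted p = 1.35e-05, limma), but hspb9 met the minimum of 0.5 FPKM in 4 libraries only through the exposed group and so had to differ. With a pseudocount of 1 the fitted change was 2.39. Under the cycle the controls read 0.74, 1.22, 0.98 and 0.42 FPKM and the exposed libraries 0.10, 2.82, 2.88 and 2.49. In 3 exposed libraries the level lay above every control and in replicate 1 it lay below all of them, from 1 fragment. The log2 difference of 0.72 ± 0.80 did not pass (adjusted p = 0.724, limma).

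Across the members, the 6 genes that met the filter in dark controls alone all rose at 25 µM in darkness, and none of their exposed groups overlapped the controls. Of all 19058 genes tested in that comparison, 12.2% rose and 13.5% lay wholly above the controls. The members, and the gene lists used below, were chosen with earlier results of these data known. Counts above the share of all genes are therefore description and no independent support. The median log2 change of the 6 genes was 1.15, and over all genes it was -0.01. Under the cycle 2 of these 6 rose, against 1.1% of 18917 genes tested, and 3 of 6 (hspb6, hspb8 and hspb11) lay wholly above the controls, against 4.83%. There the median was 0.59 for the 6 genes and -0.02 for all genes. The calls of these 6 genes in darkness held in each of the 15 alternatives.

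**Figure D2:**
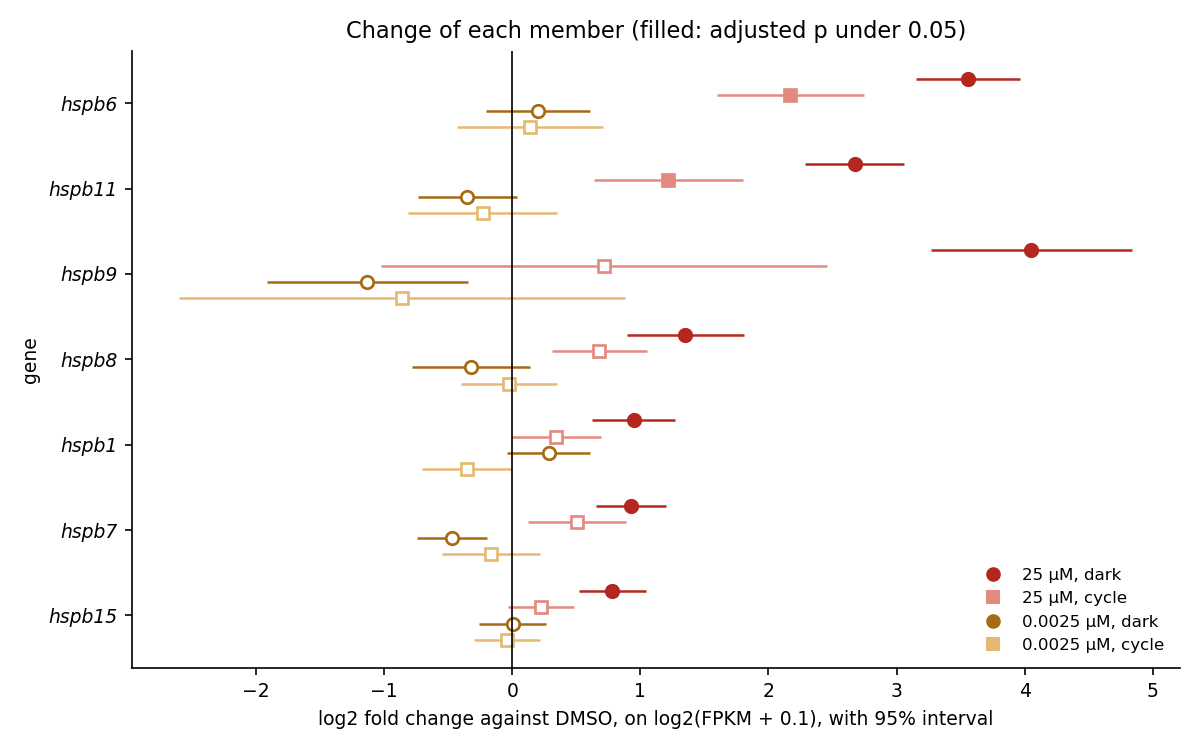
Log2 fold change against DMSO (x axis, on log2(FPKM + 0.1), with 95% intervals) of each small heat shock protein gene (y axis) at 25 µM and 0.0025 µM in darkness and under the cycle; filled symbols have an adjusted p under 0.05. At 25 µM in darkness the 6 genes with a measurable control level are filled between 0.78 and 3.56, and hspb9, which met the filter only through the exposed group, at 4.05; 2 are filled at 25 µM under the cycle, and none at 0.0025 µM.

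At 0.0025 µM the estimates of the members lay on both sides of zero. In darkness their log2 differences ran from -1.13 to 0.28 and under the cycle from -0.86 to 0.14. None of the 7 passed the test in darkness, where 0.021% of all genes did, and none under the cycle, where 0% did. At an unadjusted p below 0.05 there were 2 in darkness, hspb9 and hspb7, and 1 under the cycle, hspb1, against 7.44% and 5.44% of all genes. With limma-voom there was 1 at that unadjusted level in each, and none after adjustment. The 3 found by limma were lower than the controls. In darkness hspb7 read 7.25, 6.83, 9.14 and 10.5 FPKM at 0.0025 µM, wholly below its controls, with a log2 difference of -0.47 ± 0.13 (adjusted p = 0.510, limma). In darkness hspb9 was at 0 in 2 libraries and at 1 fragment in the other 2, and the lowest control held 1 fragment as well. These 2 genes lay wholly below the controls, hspb9 by the scaling of that fragment alone, as did 2.36% of all genes. Under the cycle hspb1 read 11.6, 9.32, 13.0 and 11.5 FPKM against controls from 13.2 upward, and 1.77% of all genes lay wholly below the controls there.

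The comparison of 25 µM with 0.0025 µM shares its exposed libraries with the comparison against vehicle, so it is no separate evidence. In darkness the 6 genes rose by 0.66 (hspb1) to 3.36 (hspb6) on the log2 scale and lay wholly above the low dose, against 11.4% of all genes higher and 12.4% wholly above. Under the cycle hspb6 (2.03 ± 0.26), hspb11 (1.45 ± 0.27) and hspb1 (0.69 ± 0.16) rose, with adjusted p of 0.00318, 0.0176 and 0.0487 (limma), and 1.4% of all genes did. Over 15 alternatives hspb6 passed in each, while hspb1 did not pass in 9 and hspb11 not in 5. There 4 of the 7 lay wholly above the low-dose libraries, against 4.98% of all genes. Among those 4 was hspb8, whose log2 difference of 0.71 ± 0.17 did not pass (adjusted p = 0.0575, limma).

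The summed FPKM of the 7 genes was 58.0 ± 4.9 in dark controls, 55.3 ± 6.0 at 0.0025 µM and 279 ± 56 at 25 µM (SD, n = 4). Under the cycle it was 71.3 ± 7.8, 63.8 ± 1.7 and 151 ± 43. In darkness the smallest sum at 25 µM was 212 and the largest control sum 61.9. The make-up changed with the level. In dark controls hspb11 held 25.6% ± 1.6 of the sum, hspb7 20.0% ± 1.8, hspb1 19.9% ± 2.2, hspb6 15.9% ± 1.3 and hspb15 15.5% ± 1.2. At 25 µM in darkness hspb6 held 39.8% ± 3.6 and hspb11 34.7% ± 2.8, and hspb1, hspb7 and hspb15 held between 5.75% and 8.16% each, although their own levels rose. Under the cycle the share of hspb6 went from 11.7% ± 1.0 to 26.5% ± 6.0 and that of hspb11 from 31.8% ± 2.4 to 36.9% ± 7.5, the latter within the spread of the exposed libraries.

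**Figure D3:**
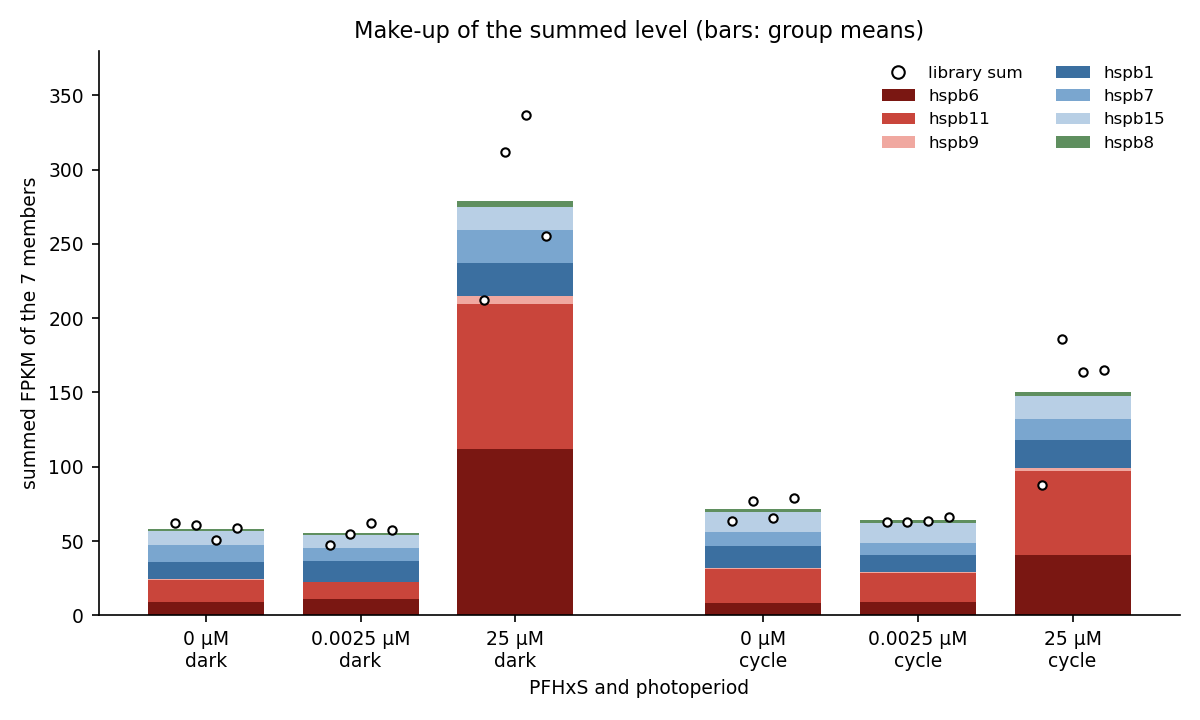
Summed FPKM of the 7 genes (y axis, from 0) by PFHxS dose and photoperiod, with bars stacked from the group mean of each gene and open circles for the sum in each library. The sum at 25 µM averages 279 in darkness and 151 under the cycle, and the segments for hspb6 and hspb11 make up most of the increase.

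Levels of the genes ordered differently in the 2 tables. In dark controls hspb11 was highest at 14.9 ± 1.5 FPKM (SD, n = 4), followed by hspb1 at 11.6 ± 2.1 and hspb7 at 11.5 ± 0.7, whose values overlapped. Next came hspb6 at 9.17 ± 0.62 and hspb15 at 8.99 ± 1.25, which overlapped too, and then hspb8 at 1.59 ± 0.31 and hspb9 at 0.24 ± 0.07. The range of hspb1, 8.51 to 13.4 FPKM, also overlapped those of hspb6 and hspb15. In cycle controls hspb11 was again highest at 22.8 ± 3.6 FPKM, with hspb1 at 14.5 ± 1.6 and hspb15 at 13.7 ± 1.7 overlapping below it, and hspb7 at 9.49 ± 0.93 and hspb6 at 8.37 ± 1.34 overlapping below those. At 25 µM hspb6 and hspb11 led in both tables, and their ranges overlapped there in each. At 25 µM in darkness hspb6 averaged 112 ± 27 FPKM and hspb11 97.5 ± 25.3, and under the cycle hspb11 averaged 57.0 ± 23.6 and hspb6 40.4 ± 15.8.

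The difference between photoperiods in the effect of 25 µM was tested in 1 fit over all 24 libraries, in which an offset between the tables cancels. A dose effect that differed between the library series would not cancel and cannot be told apart from photoperiod. The effect on hspb11 was larger in darkness by 1.46 ± 0.34 on the log2 scale (adjusted p = 0.0366, limma) and that on hspb6 by 1.39 ± 0.34 (adjusted p = 0.0480, limma). These 2 of 7 compare with 0.973% of 20145 genes whose effect was higher in darkness. With libraries scaled to total fragments, the split of all genes called in this comparison went from 196 higher and 38 lower in darkness to 121 and 108, and neither hspb6 nor hspb11 passed. Both differences were lost with limma-voom, without an expression filter and with only the 4 groups concerned in the fit, while their estimates lay between 1.09 and 1.65 in all 23 alternatives. Of these 23, hspb11 passed in 10 and hspb6 in 5. The largest estimate belonged to hspb9, at 3.33 ± 0.91, and did not pass (adjusted p = 0.0777, limma). It passed in 2 of the 23 alternatives, among them a pseudocount of 1, at 1.79 (adjusted p = 0.0216, limma). The remaining genes had differences of 0.42 (hspb7) to 0.67 (hspb8), all above zero and none past the test. For 0.0025 µM no member differed between photoperiods, with 0.00496% of all genes called and 1 member, hspb1, at an unadjusted p below 0.05 by limma, against 7.98% of all genes, and 1 by limma-voom.

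A single library weighed on the results at 25 µM under the cycle. Replicate 1 at 25 µM was the lowest of its group for 7 of 7 members and for 18 of the 18 other chaperone genes that rose in darkness. Over all 20145 genes it was the lowest of its group for 26.3%, near the share each of 4 libraries would have if they shared the lowest place evenly, and over the 2284 genes that rose in darkness for 57.4%. Its summed member level was 87.5 FPKM, against 164 to 186 in the other 3 exposed libraries and at most 79.0 in the controls. Epidermal marker genes summed to 9156 FPKM in that library and to 3202 to 7389 in its group mates. It was also the highest of its group for the summed liver (5119 against 2983 to 4019), skeletal muscle (59701 against 44752 to 53861), heart and neuronal markers, but not for the lens markers. Replicate 1 at 25 µM in darkness was the lowest of its group for 5 of 7 members, 8 of those 18 chaperone genes and 29.55% of all genes. That dark library was also the highest of its group for the summed epidermal (6441 against 2785 to 3931), liver and skeletal muscle markers, but not for heart, lens or neuronal markers. The part of these levels in the result was not tested. The cycle library named above was the lowest of its group for every member. Leaving it out therefore had to raise each estimate under the cycle and lower each difference between photoperiods. The values without it show its weight and are no separate evidence. Without it, hspb6 rose by 2.47 ± 0.19 (adjusted p = 7.36e-05), hspb11 by 1.54 ± 0.16 (adjusted p = 0.000688) and hspb8 by 0.75 ± 0.19 (adjusted p = 0.0492, limma), so 3 of 7 passed, against 2.35% of all genes. The values without it for hspb7 (0.65 ± 0.16, adjusted p = 0.0508) and hspb9 (1.66 ± 0.50, adjusted p = 0.0948) did not pass (limma). Against 0.0025 µM, 6 of 7 passed without it, and 2.46% of all genes. The difference between photoperiods without it was 1.13 ± 0.26 for hspb11 (adjusted p = 0.0428) and 1.09 ± 0.28 for hspb6 (adjusted p = 0.0839, limma). For hspb9 that difference was 2.39 ± 0.61 (adjusted p = 0.0827, limma).

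**Figure D4:**
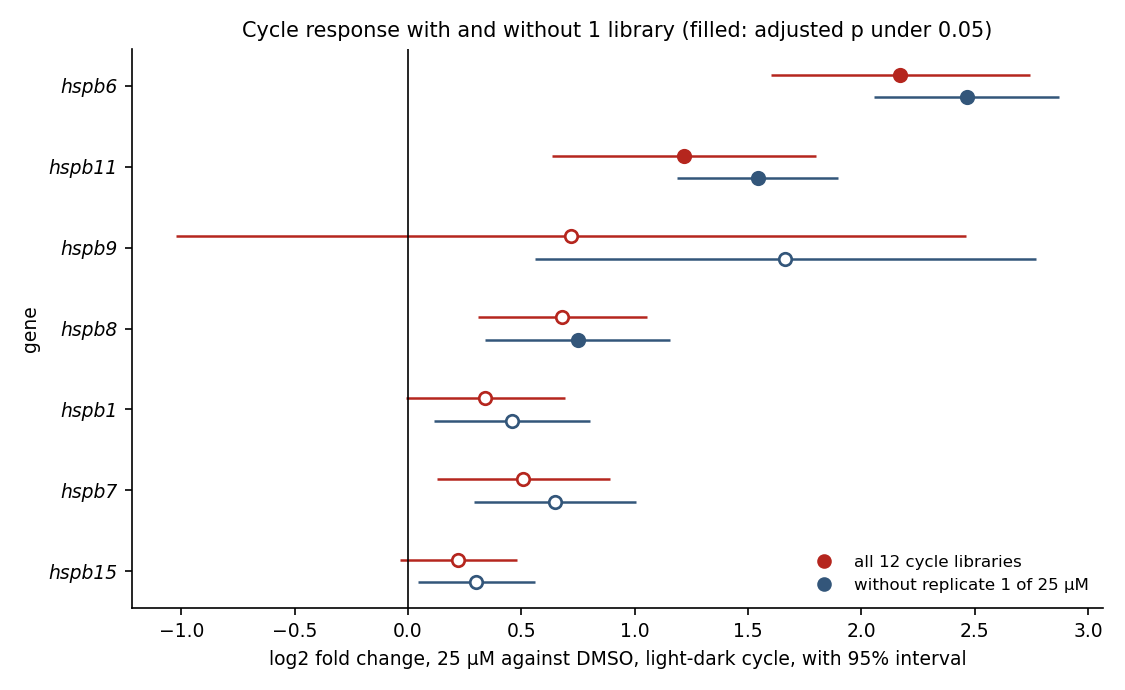
Log2 fold change at 25 µM against DMSO under the light-dark cycle (x axis, with 95% intervals) of each gene (y axis), with all 12 cycle libraries (red) and without replicate 1 at 25 µM (blue); filled symbols have an adjusted p under 0.05. Each of the 7 estimates is higher without that library, as it had to be, since the library was the lowest of its group for all 7. The interval of hspb11 narrows from 0.64 to 1.80 to 1.19 to 1.90.

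The other genes annotated with the alpha-crystallin domain are given beside the members, and no difference between genes was tested. The antisense gene CABZ01012957.1, which contains hspb9, is among them. It had at most 2 fragments in any library and did not meet the filter. The lens chaperone cryaa was at 46.3 ± 7.6 FPKM in dark controls and 52.4 ± 11.7 at 25 µM (SD, n = 4), with a log2 difference of 0.17 ± 0.16 (adjusted p = 0.496, limma). The genes cryaba and cryabb, fish counterparts of alpha-B-crystallin, had mean levels below 0.1 FPKM in every group and did not meet the filter. The muscle genes hspb2 and hspb3, whose human proteins form a complex, had differences in darkness of 0.95 ± 0.56 and 0.65 ± 0.55 that did not pass (adjusted p = 0.258 and 0.444, limma). Dark control libraries ranged from 0.55 to 4.30 FPKM for hspb2. The gene si_dkey-1k23.3, which lies tail to tail with hspb8 at a distance of 1038 bases, rose in darkness by 1.04 ± 0.35 (adjusted p = 0.0497, limma), close to the threshold. Its estimate at 0.0025 µM was as high, at 1.14 ± 0.35 (adjusted p = 0.552), and under the cycle at 25 µM it was 0.17 ± 0.26 (adjusted p = 0.802, limma).

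Of the genes of heat shock factors, the activators of this response, most did not pass. Of 5 tested members of a list of factors and their binding proteins, hsf2 rose at 25 µM in darkness, from 15.3 ± 1.4 to 20.6 ± 1.3 FPKM (SD, n = 4), by 0.43 ± 0.12 on the log2 scale (adjusted p = 0.0178, limma). The gene hsf1, the main stress-responsive factor, was at 2.96 ± 0.55 and 3.90 ± 0.74 FPKM, a difference of 0.39 ± 0.18 (adjusted p = 0.150, limma). The lens-associated factor hsf4 differed by -0.33 ± 0.23 (adjusted p = 0.336), and the factor-binding genes hsbp1a and hsbp1b by 0.07 ± 0.08 and 0.14 ± 0.10 (adjusted p = 0.548 and 0.345, limma). The genes hsf5 and hsf2bp fell below the filter. Of the 5 tested, 1 passed in darkness and none under the cycle, where 12.2% and 1.1% of all genes rose.

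Some of the larger chaperone genes were higher in darkness too. In a list of heat shock and co-chaperone genes outside the members 49 were tested, of which 18 were higher, 3 were lower and 28 did not pass. Their median log2 change was 0.31, when 12.2% of all genes rose and 9.60% fell. The Hsp90 gene hsp90aa1.1, which zebrafish muscle needs for myosin folding, went from 25.8 ± 3.6 to 88.9 ± 13.6 FPKM and rose by 1.78 ± 0.14 (adjusted p = 3.88e-06, limma). The Hsp70 co-chaperone gene dnajb2 rose by 1.78 ± 0.20 and hspa4a, of the Hsp110 family that recharges Hsp70, by 0.81 ± 0.11 (adjusted p = 6.95e-05 and 0.000330, limma). The inducible genes hsp70.1, hsp70.2, hsp70.3 and hsp70l, named here after their values were seen, are close copies between which fragments may be split. In that order they rose at 25 µM in darkness by 3.69 ± 0.62, 3.155 ± 0.56, 3.13 ± 0.52 and 3.69 ± 0.78 (adjusted p = 0.00117, 0.0017, 0.00112 and 0.004825, limma). Their levels in these libraries spread far more than those of hspb6 or hspb9. The range was 5.87 to 86.5 FPKM for hsp70.1 and 4.99 to 130.0 for hsp70l, with control means of 1.45 and 2.04. Under the cycle none of the 49 chaperone genes passed, and the log2 differences of hsp90aa1.1 and hsp70.3 were 1.28 ± 0.40 and 1.92 ± 0.48 (adjusted p = 0.137 and 0.0714, limma). Replicate 1 at 25 µM was the lowest of its group for the 18 that rose in darkness, so leaving it out had to raise their estimates. Without it 8 of the 49 rose and 1 fell, against 2.35% and 1.72% of all genes. Among the 8 were hsp70.3 (2.57 ± 0.17, adjusted p = 2.4e-05), hsp90aa1.1 (1.80 ± 0.20, adjusted p = 0.000865) and dnajb2 (0.91 ± 0.21, adjusted p = 0.0382, limma).

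A further list described chaperone-assisted autophagy, and it held bag3, the gene of the HSPB8 partner, together with general autophagy and ubiquitin genes. Of 26 tested genes of that list, 11 rose, 1 fell and 14 did not pass in darkness, when 12.2% of all genes rose and 9.60% fell. Their median log2 change was 0.35. The co-chaperone gene bag3, which is also on the chaperone list, went from 8.31 ± 0.98 to 20.7 ± 6.6 FPKM and rose by 1.27 ± 0.18 (adjusted p = 0.000385, limma). The autophagy receptor gene sqstm1 rose by 2.52 ± 0.29 and flnca, a filamin of the muscle Z-disc, by 1.19 ± 0.13 (adjusted p = 7.49e-05 and 4.98e-05, limma). Under the cycle sqstm1 rose too, by 1.42 ± 0.29 (adjusted p = 0.0347, limma). With all libraries it was the only one of the 26 to do so, when 1.1% of all genes rose. The differences of bag3 and flnca were 0.46 ± 0.16 and 0.52 ± 0.15 (adjusted p = 0.177 and 0.114, limma). Without replicate 1 at 25 µM 4 of the 26 rose, against 2.35% of all genes. They were sqstm1, map1lc3a, bag3 and flnca, the last 2 by 0.64 ± 0.12 and 0.61 ± 0.15 (adjusted p = 0.0138 and 0.0487, limma).

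Among 18 tested genes of muscle chaperoning and remodelling, 5 were higher and 3 lower in the dark comparison, against 12.2% and 9.60% of all genes, and the median log2 change was 0.26. The genes hsp90aa1.1, hspb2 and hspb3 are counted here as well. The strain-responsive gene ankrd1b rose by 1.22 ± 0.12 in darkness and 0.86 ± 0.15 under the cycle (adjusted p = 3.29e-05 and 0.0200, limma). The muscle ubiquitin ligase gene trim63a rose in darkness from 0.49 ± 0.09 to 5.005 ± 2.42 FPKM, by 2.98 ± 0.39, and its difference between photoperiods was 2.82 ± 0.57 (adjusted p = 0.000188 and 0.0145, limma). Its mean in dark controls lay under the 0.5 FPKM of the filter, so those controls alone did not meet it.

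In RNA from whole larvae, fewer cells of a type and less RNA per cell cannot be told apart, so marker genes of the organs that hold these chaperones are given beside the results. Among 32 tested skeletal muscle markers 4 were higher and 2 lower in the dark comparison, against 12.2% and 9.60% of all genes, with a median log2 change of -0.08. The summed level of all 36 matched skeletal muscle markers, tested or not, was 46371 to 49470 FPKM in controls and 41536 to 49028 in exposed libraries, which overlap. The 3 with the smallest adjusted p were myod1, the myogenic factor, desma, a desmin, and smyhc2, a slow myosin, which rose by 1.12 ± 0.14, 0.39 ± 0.07 and 0.44 ± 0.11 (adjusted p = 0.000143, 0.00229 and 0.0130, limma). Of 15 tested heart markers 3 rose and none fell in darkness, nppb by 2.97 ± 0.71, cmlc1 by 0.45 ± 0.12 and nppa by 0.67 ± 0.18 (adjusted p = 0.0101, 0.0181 and 0.0207, limma). The sum of all 19 matched heart markers went from 278 to 294 FPKM in controls to 302 to 354. None of 23 lens markers passed, and 13 of 20 tested epidermal markers fell. The sum of all 22 matched epidermal markers went from 6769 to 8788 FPKM in controls to 2785 to 6441. Of 17 liver markers 4 rose and 7 fell, and of 19 neuronal markers 1 rose and 5 fell. The part of these shifts in the results for the small heat shock genes was not tested. Each of these organ lists had expressed genes in the dark controls.

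Genes whose pattern over libraries was most like that of each member were ranked among 13294 genes by the mean of Pearson's r over the 12 dark and the 12 cycle libraries. These r describe libraries that share dose groups. For hspb6 the closest were cs (citrate synthase, mean r = 0.981), scg2b (a secretogranin, 0.971) and aldoaa (an aldolase, 0.968). For hspb11 they were calca (calcitonin gene, mean r = 0.962), tcap (the Z-disc protein telethonin, 0.961) and cth (cystathionine gamma-lyase, 0.956). For hspb9 they were hsp90aa1.1 (mean r = 0.899), bhlhe40 (a transcriptional repressor, 0.889) and plaa (a ubiquitin-binding protein, 0.881). For hspb7 they were xirp1 (the muscle protein Xin, mean r = 0.927), loxl2a (a lysyl oxidase, 0.919) and tcap (0.918). For hspb8 they were syt13 (mean r = 0.920), pfkfb4a (0.915) and gad2 (0.914), for hspb1 ctsla (0.921), pyya (0.893) and chchd6b (0.890), and for hspb15 chchd6b (0.889), hhla2b.1 (0.886) and eif4e3 (0.878). Among the members themselves the 21 pairs had r from 0.728 to 0.978 in darkness, with a median of 0.898, and from 0.396 to 0.898 under the cycle, with a median of 0.708.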

How the data were processed

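RNA was sequenced in 24 libraries of zebrafish larvae (6 groups of 4). The authors deposited FPKM per gene in 2 tables, 1 per photoperiod. The tools named per the submitters' processing notes are HISAT2 2.0.5, an aligner, and featureCounts 1.5.0-p3, a read counter. Genome build and use of strand are not stated there. After multiplication by gene length, 100% of the values of a library were whole multiples of a common unit (tolerance 0.001), so fragments could be recovered.

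Members and gene lists were chosen with earlier results of these data known. From the deposited FPKM, log2(FPKM + 0.1) was fitted with limma 3.58.1 (R 4.3.3, trended empirical Bayes), with 1 mean per group, for genes reaching an FPKM of 0.5 in 4 or more libraries of the fit. Doses were compared within the 12 libraries of a table, and their effects between photoperiods over all 24. P-values were adjusted by Benjamini-Hochberg over all genes, threshold 0.05. The fit was tested on simulated data. Fragment ratios were scaled by the library sizes behind the FPKM and have exact 95% intervals.

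By the naming rule every member is given, with its 3 most alike named genes of mean FPKM at least 1, the 3 genes of each list with the smallest adjusted p at 25 µM in darkness, and all further family and heat shock factor genes. List genes (244 of 256 matched, 11 lists) were found by symbol. Alternatives were limma-voom on recovered fragments, a pseudocount of 1, no filter, a mean FPKM of at least 1, a replicate block, a fit on the compared groups alone, scaling to total fragments, and each library left out in turn. A planned search of promoters for heat shock elements was not run, since no sequence was used here.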

Additional observations from a re-analysis of the deposited data

Results flagged for a closer look

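Within groups of 4 libraries, a library was singled out when its gap to the nearest other library exceeded Dixon's critical share of the group's range at the 95% level. Of 42 groups of member values 4 met this. Chance gives about 1 in 20 for independent groups of continuous values. These groups share libraries and hspb9 rests on few fragments, so that rate is no fair comparison. For hspb6 these were replicate 1 of the dark controls, high at 10.1 FPKM, and replicate 3 of 0.0025 µM in darkness, high at 14.98 FPKM. For hspb9 they were replicate 1 of the dark controls, low at 0.14 FPKM from 1 fragment, and replicate 1 of 25 µM under the cycle, low at 0.10 FPKM from 1 fragment. Under the cycle that last library was also the lowest of its group for the other 6 members.

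The effect of 25 µM differed between photoperiods by limma's test of the difference for hspb6, by 1.39 on the log2 scale (adjusted p = 0.0480), and for hspb11, by 1.46 (adjusted p = 0.0366). Both were larger in darkness, as were 0.973% of 20145 genes. Of 23 alternatives hspb6 passed in 5 and hspb11 in 10. A dose effect that differed between the library series cannot be told apart from photoperiod here.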

How the results depend on the processing

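At 25 µM in darkness the 6 genes with a measurable control level kept their direction and passed in each of 15 alternatives. With hspb9, which met the filter only through the exposed libraries, the count was 6 to 7 with 1 library left out, since hspb9 was not tested when any exposed dark library was removed. Counts at 0.0025 µM were 0 in every alternative. For 25 µM against control under the cycle, 1 member passed instead of 2 without a filter, with the replicate block and with only the groups compared, and 1 to 3 with 1 library left out. For 25 µM against 0.0025 µM under the cycle, 1 instead of 3 passed with only the groups compared, 2 without a filter and with the replicate block, and 1 to 6 with 1 library left out. For the difference between photoperiods at 25 µM, 0 instead of 2 passed with limma-voom, without a filter, with only the groups compared and with scaling to total fragments, and 0 to 3 with 1 library left out. No called value changed sign. The replicate numbers showed no pairing of the libraries (correlations of deviations from -0.12 to 0.11), which does not settle whether same-numbered libraries shared a clutch. With the replicate block, all genes called at 25 µM under the cycle went from 328 to 162. With 1 library left out that count ranged from 70 (without control replicate 3) to 764 (without replicate 1 at 25 µM). For 25 µM against 0.0025 µM under the cycle, such removals moved all genes called from 383 to between 160 and 655. For the difference between photoperiods at 25 µM they moved that number from 234 to between 125 and 482. Depth limited hspb9, whose 7 fragments in dark controls gave a ratio with an interval of 10.8 to 57.4.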
